A study of Mus musculus with 2 samples.

Results

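The enzymes that build purines, pyrimidines and deoxynucleotides, and the serine, folate and methionine enzymes that feed them with carbon, were examined in the mouse kidney at embryonic day 14.5. The 36 genes were taken from a named list of enzymes by matching the gene identifiers of both gene tables to mouse gene symbols, and all 36 were found among the 43346 genes of the tables. Each of the 2 libraries was made from total RNA of 2 kidneys of 1 embryo of strain B6NCrl, with no treatment or genotype named. The labels number them as biological replicates 1 and 2, give collection days that lie apart, and call the sex of each pooled although a single pup is described. RNA longer than 200 nt was extracted with a mirVana kit, 10 ng entered each library with spike-in RNAs, and a Smart-seq protocol is linked in the labels. With 1 group of 2 samples no test between conditions exists, so the spread between the libraries is the only error available.

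A growing organ copies its genome and its ribosomes at the same time and needs nucleotides for both. Purines are assembled on phosphoribosyl pyrophosphate with carbon from folate and with glycine, and pyrimidines are made as a ring first. Ribonucleotide reductase turns ribonucleotides into deoxynucleotides, and thymidylate synthase uses a folate carbon to make thymidylate. Serine, made from a glycolytic intermediate or taken up, gives the folate cycle its carbon through the serine hydroxymethyltransferases. The methionine cycle takes a methyl group from folate and hands it on as S-adenosylmethionine. In bulk tissue, fewer cells of a type and less RNA per cell cannot be told apart.

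The depth was 29718428 expected counts in replicate 1 and 29204212 in replicate 2, and the enzymes took 0.528% and 0.468% of the counts on genes. The lowest member count was 293 and the highest 16840. Nephron progenitor markers (5 of 5), ureteric markers (4 of 4) and stromal markers (3 of 3) were at 1 TPM (transcript abundance) or more in both libraries, which fits the kidney label. TPM is a level per transcript length, scaled to a fixed sum in each library, which allows genes to be compared within a library. The difference between the libraries moved with transcript length, as given below. The part of length in the ratios between genes of unlike length was not tested. Adrenal cortex markers (0 of 3) and gonad and germ cell markers (0 of 3) did not reach that level, with Dazl at 0 in both libraries. Proximal tubule markers summed to 40.5 and 16.6 TPM, stromal markers to 352 and 219.8, endothelial markers to 96.7 and 64.6, macrophage markers to 43.6 and 33.9 and liver markers to 26.1 and 16.5. These sums were all higher in replicate 1, as most of the enzymes were, and their part in the differences between libraries was not tested. Col1a1 made most of the stromal sum (299 and 185 TPM) and Afp most of the liver sum (21.95 and 13.0 TPM). Among these markers only Foxd1 (stroma, 12.4 and 18.3 TPM) and Apoa1 (liver, 2.04 and 2.32 TPM) were higher in replicate 2.

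All 36 enzymes reached 1 TPM in both libraries, as did 59.0% of the 21474 protein-coding genes. The median over the enzymes was 51.8 TPM, with 64.2 in replicate 1 and 38.5 in replicate 2, and the median over the protein-coding genes detected in both libraries was 18.3 TPM. Of the 36, 32 lay above that median and 11 were over 100 TPM. The 4 below it were Rrm2b, Mtr, Mthfd1l and Mthfd2l. By mean TPM Phgdh was the highest enzyme and Rrm2b the lowest, 59.8-fold apart. The deoxynucleotide enzymes had the highest pathway median, 169.9 TPM, followed by serine synthesis (77.8), the methionine cycle (68.7), pyrimidine synthesis (47.1), the purine route to IMP (43.9), the AMP and GMP branches (43.4) and folate (40.7). The last 4 medians differ by less than their spread between libraries, which for pyrimidine synthesis alone ran from 37.3 to 56.8 TPM. The order of the enzymes was shared by the libraries, with a Spearman rho of 0.97 across the 36 genes, which share their library and are not independent.

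**Figure D1:**
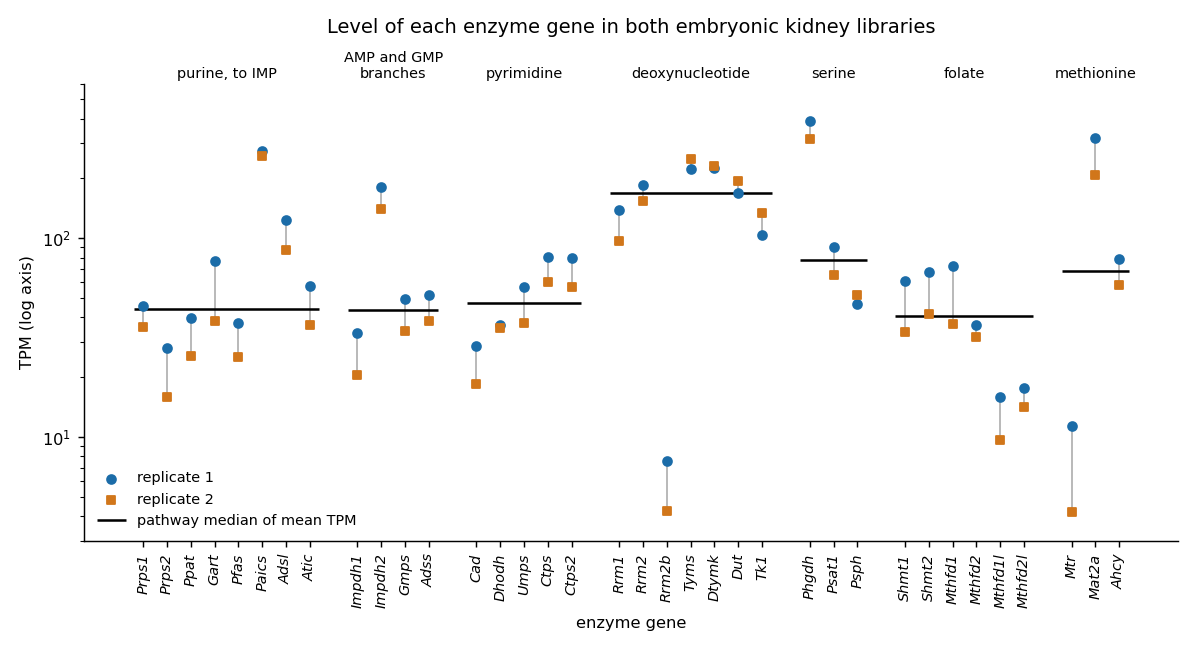
TPM on a log axis for each of the 36 enzyme genes, in pathway order, with a circle for replicate 1, a square for replicate 2 and a line for the pathway median of mean TPM. The deoxynucleotide group sits highest apart from Rrm2b at 7.60 and 4.22 TPM, and replicate 1 is the higher library for 31 of the 36 genes.

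The purine route to IMP held 1 very abundant enzyme among moderate ones. Phosphoribosyl pyrophosphate, the sugar on which both kinds of nucleotide are built, is made by the Prps enzymes. Prps1 was at 45.8 TPM in replicate 1 and 35.6 in replicate 2. Prps2 was at 27.9 and 15.9, so the forms did not overlap within either library and Prps1 was 1.94 ± 0.423 times as high (SD, n = 2). Prps1l3, a gene with a close copy of the Prps1 sequence on another chromosome (chr12:57230412-57239882), was listed at 76.3 and 44.5 TPM, above Prps1 in both libraries; it was singled out after its value was seen. Its transcript aligned to Prps1-201 at 92.8% identity over 1500 nt and to Prps2-201 at 80.3% over 940 nt. With Prps1 and Prps1l3 added together the ratio to Prps2 was 4.71 in place of 1.94, and how the submitters' counting divided reads between the copies was not tested.

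Ppat, which commits phosphoribosyl pyrophosphate to purines, was at 39.5 and 25.4 TPM. Gart, whose protein carries out several steps of the route, was at 76.4 and 38.5 TPM. Pfas, which adds the amide nitrogen, was at 37.5 and 25.2 TPM. These 3 enzymes were each higher in replicate 1. Paics, which carries out a later joined pair of steps, was at 276 and 259.5 TPM (mean 268 ± 11.9, SD, n = 2). Paics was the second highest of all 36 enzymes by mean TPM, although Mat2a was above it in replicate 1. The Paics level was above that of 96.3% of detected protein-coding genes. Adsl, which acts both here and on the branch to AMP, was at 124 and 87.0 TPM. Atic, which closes the ring to IMP, was at 57.4 and 36.6 TPM. Adsl and Atic were again higher in replicate 1, while Paics differed by 1.06-fold.

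Ppat and Paics stand head to head on chromosome 5. In the GENCODE M21 annotation on GRCm38, Ppat lies on the minus strand (chr5:76913249-76951578) and Paics on the plus strand (chr5:76951307-76967509), and their exons share 272 nt on opposite strands. The leading transcripts, Ppat-202 and Paics-202, have 5' ends at positions 76951578 and 76951368, so their spans overlap by 211 bases of the genome. Paics was 6.99-fold higher than Ppat in replicate 1 and 10.2-fold higher in replicate 2. No source used here says whether reads were counted by strand, so those from the shared 272 nt cannot be assigned with certainty.

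The promoter windows of the purine genes differed in 2 short motifs, and the matches are printed because the E-box (CACGTG, the letters bound by MYC family proteins) was found in 3 purine enzymes. RefSeq windows on GRCm38.p6, from 250 bases before the start to 50 from the start on, were matched for 33 of the 36 enzymes. Pfas, Dhodh and Rrm2b had no entry. An E-box stood in 5 of the 33 enzymes (15.2%), against 8.09% of 27025 genes with a window of the same length and 11.5% of the 10582 of these at a mean of 1 TPM or more. The matches are written 5' to 3' in the gene's direction, with the motif in capitals.
Paics E-box (chr5:76951087-76951116, plus strand): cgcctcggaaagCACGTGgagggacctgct
Atic E-box (chr1:71557137-71557166, plus strand): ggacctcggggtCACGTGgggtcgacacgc
Impdh2 E-box (chr9:108560314-108560343, plus strand): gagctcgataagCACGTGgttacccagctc
Ppat E2F-type motif (chr5:76951771-76951800, minus strand): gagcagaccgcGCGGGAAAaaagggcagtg
Ppat E2F-type motif (chr5:76951718-76951747, minus strand): aggatcagaggGCGGGAAAgggaggtgcaa

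The first base of the E-box stood 203 bases before the start in Paics, 7 before in Atic and 110 before in Impdh2. The Ppat window held 2 copies of TTTCCCGC read on the other strand, at 211 and 158 bases before its start, and the Paics window had none. Because these genes overlap head to head, both Ppat sites lie inside the Paics gene span, beyond the Paics window. Likewise, the Paics E-box lies inside the Ppat gene span, beyond the Ppat window. The E2F-type search covered TTTGGCGC, TTTCCCGC, TTTGGCGG and TTTCGCGC on both strands. These motifs stood in 2 of the 33 enzymes (6.06%), Ppat and Prps2, against 2.70% of all windows and 4.99% of those of expressed genes. Both enzyme counts rest on few genes. A match shows letters in the window, and no binding was measured.

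From IMP the route divides, and the GMP side was led by Impdh2. Impdh1 and Impdh2 encode the IMP dehydrogenases, the rate-limiting enzymes of GMP synthesis. Impdh2 was at 182 and 140.5 TPM and Impdh1 at 33.5 and 20.5 TPM. The Impdh2 to Impdh1 ratio was 5.42 in replicate 1 and 6.86 in replicate 2 (6.14 ± 1.01, SD, n = 2). Gmps, which adds the final amino group of GMP, was at 49.3 and 33.95 TPM. Adss, the first enzyme of the AMP branch, was at 51.8 and 38.4 TPM, and its muscle-type relative Adssl1 at 7.24 and 5.93 TPM, which gave a ratio of 6.82 ± 0.475 (SD, n = 2). In each of these pairs the higher gene was the same in both libraries. The pseudogene Impdh2-ps, 99.7% identical to Impdh2 over 1545 nt, was listed at 2.45 and 3.36 TPM.

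The 5 pyrimidine enzymes lay within 2.99-fold of each other in mean TPM, the narrowest of the 5 groups with more than 3 members. Cad, the fused enzyme of the first steps, was the lowest at 28.7 and 18.5 TPM. Dhodh, the step in the mitochondrial inner membrane, was at 36.6 and 35.4 TPM, a difference of 1.03-fold. Umps, which makes UMP, was at 56.8 and 37.3 TPM. Dhodh was the only pyrimidine enzyme with nearly equal values in the libraries. Ctps and Ctps2 encode the CTP synthases. Ctps was at 80.4 and 60.45 TPM and Ctps2 at 79.75 and 56.8 TPM. The ratio was 1.01 and 1.06, so the forms were level within the spread between libraries. That equality rests on the transcript models: Ctps had 4013 and 3439 expected counts and Ctps2 only 1852 and 1440, and 52.5% and 55.35% of Ctps2 TPM lay on a transcript of 741 nt, against 1665 nt for the next most abundant one.

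The deoxynucleotide enzymes were the most abundant group and summed to 1054 and 1064 TPM. Rrm1, the large subunit of ribonucleotide reductase, was at 139 and 96.8 TPM. Rrm2, its small subunit in S phase (chr12:24708241-24714146, plus strand), was at 186 and 154 TPM. Rrm2b, the small subunit induced by p53 and used outside S phase, was at 7.60 and 4.22 TPM. Rrm2 was thus 24.4-fold and 36.5-fold higher than Rrm2b (30.5 ± 8.56, SD, n = 2), the largest ratio between 2 detected relatives. On the deposited posterior mean TPM, where Rrm2b was at 9.69 and 5.74, the mean ratio was lower at 22.5. Rrm2 also exceeded Rrm1 in both libraries, with Rrm1 at 0.748 and 0.628 of Rrm2. Trp53 itself was at 173 and 161 TPM.

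Tyms, which makes thymidylate (chr5:30058202-30073617, minus strand), was at 223 and 250.1 TPM. Dtymk, which phosphorylates it, was at 225 and 230.3 TPM. Dut, which removes dUTP and supplies dUMP, was at 169.9 and 194 TPM. Unlike most of the enzymes, these 3 were higher in replicate 2 over all transcripts. Dtymk was nearly level, with replicate 1 at 0.98 of replicate 2. On transcripts annotated as protein-coding alone, Tyms was level at 20.9 and 20.9 TPM. Tk1, the cytosolic thymidine kinase of S phase, was at 104 and 134 TPM and also higher in replicate 2. The mitochondrial kinase Tk2 was at 14.4 and 9.26 TPM, and the Tk1 to Tk2 ratio was 7.19 in replicate 1 and 14.5 in replicate 2, a spread of a factor of 2 that leaves its size poorly fixed. The other 2 E-boxes among the enzymes lay 61 and 148 bases before the start of Tyms and Dtymk. They belong to the 5 of 33 enzymes (15.2%) counted above, against 11.5% of expressed genes.
Tyms E-box (chr5:30073669-30073698, minus strand): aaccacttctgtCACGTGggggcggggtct
Dtymk E-box (chr1:93802065-93802094, minus strand): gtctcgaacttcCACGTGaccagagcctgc

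Serine synthesis opened with the highest enzyme of all 36. Phgdh, which takes 3-phosphoglycerate out of glycolysis (chr3:98313170-98339990, minus strand), was at 388 and 318 TPM (353 ± 49.9, SD, n = 2), above 97.1% of detected protein-coding genes. Psat1, the transaminase, was at 90.01 and 65.7 TPM. Psph, the phosphatase that releases serine, was at 46.7 and 51.6 TPM. Over all transcripts the levels thus stepped down along the route within both libraries, and Phgdh was 7.19-fold above Psph in mean TPM. On transcripts annotated as protein-coding alone, Psat1 was at 83.19 and 50.35 TPM and Psph at 45.57 and 50.03 TPM. By that measure Psat1 and Psph were nearly level in replicate 2. Psph shares 452 nt of exon on the opposite strand with Cct6a, listed at 435 and 322 TPM, so without strand part of its count may belong to that gene. The processed pseudogene Gm7901, 98.7% identical to Phgdh over 1597 nt, was listed at 2.98 and 2.57 TPM.

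The CCAAT box was the commonest motif searched, and the matches of Phgdh, Psat1 and Mthfd2 are shown as examples of windows with several copies. It stood on either strand in 18 of the 33 enzymes (54.5%), against 41.1% of all windows and 43.2% of those of expressed genes. In 6 enzymes there were 2 or more copies: Phgdh, Psat1, Psph, Mthfd2, Mtr and Rrm1. The amino acid response element TGATGNAAT, bound by ATF4 and its partners, was searched on both strands and stood in 0 of the 33, against 1.08% of all windows. That count says only that these letters are not in the windows. Atf4 was at 102 and 107 TPM.
Phgdh CCAAT box (chr3:98340146-98340174, minus strand): ttctgtttatttCCAATataaatcagcct
Phgdh CCAAT box (chr3:98339976-98340004, minus strand): aagcatttctgaCCAATcaaaaggagact
Psat1 CCAAT box (chr19:15925079-15925107, minus strand): tagtgagcgtggCCAATagggaggggagc
Psat1 CCAAT box (chr19:15925049-15925077, minus strand): tctgagcgagagCCAATcagtgagcggcc
Psat1 CCAAT box (chr19:15925020-15925048, minus strand): tgagacagcgaaCCAATggagcgccgact
Mthfd2 CCAAT box (chr6:83317684-83317712, minus strand): tgactccttcagCCAATcaggacctgctc
Mthfd2 CCAAT box (chr6:83317635-83317663, minus strand): ctgagatctcctATTGGctcctacgccgg
Mthfd2 CCAAT box (chr6:83317610-83317638, minus strand): ccggctcaggggCCAATgggcgcgcggga

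The 2 Phgdh copies stood 193 and 23 bases before the start, and those of Mthfd2 96, 47 and 22 before. Psat1 held 1 of its 3 copies after the start, 23 bases past it. The middle Mthfd2 copy reads ATTGG because the box lies on the opposite strand.

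The folate enzymes were moderate, with both cytosolic and mitochondrial forms detected. Shmt1, the cytosolic serine hydroxymethyltransferase, was at 60.9 and 33.6 TPM. Shmt2, its mitochondrial counterpart, was at 67.4 and 41.4 TPM. The Shmt2 to Shmt1 ratio was 1.11 and 1.23 (1.17 ± 0.0898, SD, n = 2), above 1 in both libraries by a small margin. That margin counts all transcripts. On transcripts annotated as protein-coding alone Shmt1 was at 36.4 and 23.4 TPM, while Shmt2 kept its full level. Mthfd1, the cytosolic enzyme that joins several of the folate steps, was at 72.8 and 37.0 TPM. Mthfd1l, the mitochondrial formate producer, was at 15.9 and 9.60 TPM. Mthfd1 was 4.59-fold and 3.85-fold higher than Mthfd1l. Mthfd2, the mitochondrial dehydrogenase and cyclohydrolase typical of embryonic and dividing cells, was at 36.4 and 31.9 TPM. Mthfd2l, its relative found in adult tissue as well, was at 17.7 and 14.2 TPM. Mthfd2 was 2.15 ± 0.130 times as high (SD, n = 2). Over all transcripts, the 4 mitochondrial enzymes summed to 137 and 97.1 TPM and the 2 cytosolic ones to 134 and 70.6 TPM. By that measure the sums were level in replicate 1 and the mitochondrial sum was the higher in replicate 2. The cytosolic sum includes the Shmt1 transcripts that are not annotated as protein-coding.

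In the methionine cycle the step that makes the methyl donor was abundant and the step that regenerates methionine was not. Mat2a, which makes S-adenosylmethionine outside the adult liver (chr6:72432799-72439558, minus strand), was at 319 and 209 TPM (264 ± 77.7, SD, n = 2). Its liver relative Mat1a had 1 expected count in replicate 1 and 0 in replicate 2. Per length, Mat2a was 19355-fold higher in replicate 1, with a 95% counting interval of 3473-fold to 764531-fold, and at least 4882-fold higher in replicate 2 when a count of 0 is taken to allow 3 counts in that library. Ahcy, which splits S-adenosylhomocysteine, was at 79.0 and 58.4 TPM. Ahcyl1, a relative that regulates ion channels and transporters, was at 94.8 and 55.6 TPM, and the Ahcy to Ahcyl1 ratio of 0.833 and 1.05 changed side between libraries. Gm4737, an annotated gene 99.7% identical to Ahcy over 2083 nt, was listed at 1.76 and 1.43 TPM. Mtr, the cobalamin-dependent methionine synthase (chr13:12182712-12258113, minus strand), was at 11.3 and 4.20 TPM, the second lowest of the 36 by mean TPM and the lowest in replicate 2.

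**Figure D2:**
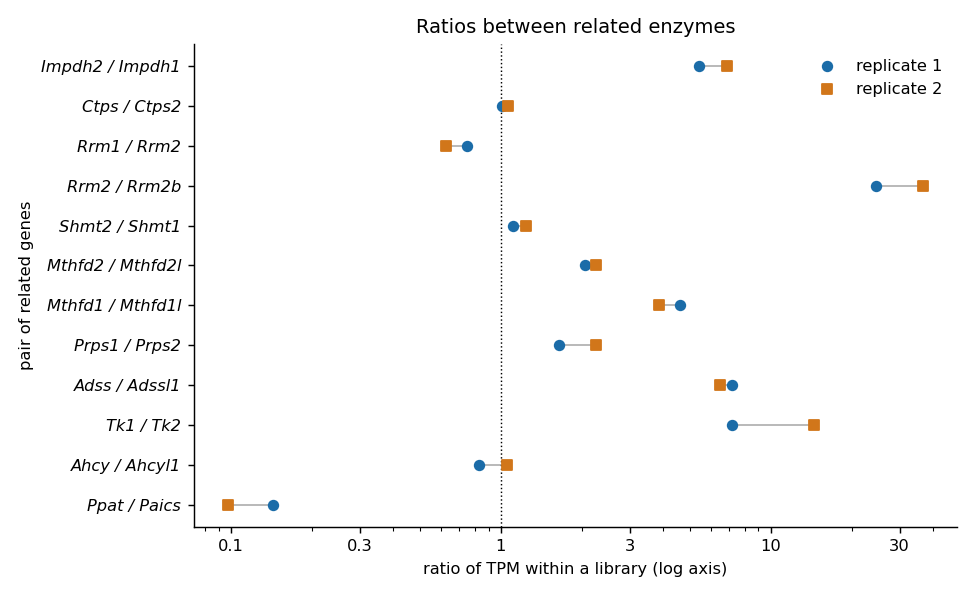
Ratio of TPM between related genes within a library, on a log axis, with a circle for replicate 1, a square for replicate 2 and a dotted line at equal levels; Mat2a over Mat1a is left out because Mat1a is at 0 in replicate 2. Rrm2 over Rrm2b lies farthest to the right at 24.4 and 36.5, Ppat over Paics farthest to the left, and only Ahcy over Ahcyl1 crosses the line.

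Much of the RNA assigned to several enzymes lay on transcripts that are not annotated as protein-coding. The 36 genes had 178 listed transcripts, and 7 genes had only 1 (Gmps, Rrm1, Shmt2, Mthfd1, Mthfd2l, Mtr and Mat2a). Of the other 29, 28 had the same leading transcript in both libraries. In 28 of the 36 genes more than 90% of TPM was on coding transcripts. Tyms stood lowest among the genes whose transcripts were matched, at 9.39% and 8.35%. Its leading transcript was Tyms-205, annotated as subject to nonsense-mediated decay, with 43.5% and 46.9% of its TPM, and the retained-intron Tyms-202 held 30.1% and 34.9%. On the coding Tyms-201 alone the level was 20.9 and 20.9 TPM, in place of 223 and 250.1 for the gene. Stretches of Tyms transcripts also matched expressed genes elsewhere, namely Reep3 (97.7% identity over 355 nt, 27.5 and 24.3 TPM), Wdr59 (96.4% over 358 nt, 4.6 and 3.41 TPM) and Map3k2 (95.5% over 357 nt, 4.31 and 3.13 TPM). How reads were divided between these stretches was not tested.

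Pfas had 27.3% and 23.4% of its TPM on coding transcripts, and the retained-intron Pfas-205 held 66.0% and 70.2%. In Adsl the coding share was 54.9% and 57.2%, with the decay-annotated Adsl-205 as the leading transcript at 43.5% and 41.8%. Tk1 had 62.3% and 58.3% on Tk1-201 and 28.6% and 36.03% on the retained-intron Tk1-203. These shares differed by under 10 percentage points between libraries, so the low coding shares were seen in both. Shmt1 (59.8% and 69.7%) and Psat1 (92.4% and 76.7%) varied more. Atic was the gene whose leading transcript changed: the retained-intron Atic-205 led in replicate 1 with 52.0% and held 21.04% in replicate 2, where the coding Atic-201 led with 70.0% against 40.45%. In TPM, Atic-201 was nearly equal, at 23.2 and 25.7, while Atic-205 was at 29.8 and 7.71. For Dhodh the leading transcript, with 57.6% and 61.6%, was not matched in the annotation used for transcript types, so its coding share is not known. Gart was split between the long Gart-201 (75.0% and 62.4%) and the short Gart-202, both coding. Total RNA also holds unspliced RNA, and its part in the retained-intron shares was not tested.

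**Figure D3:**
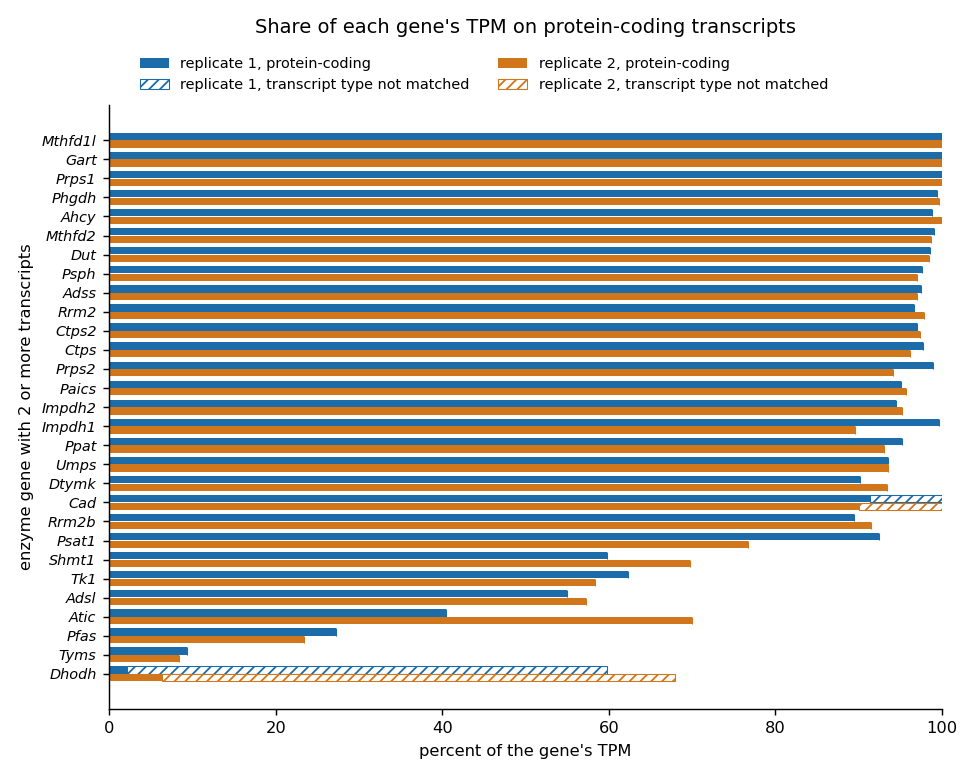
Percent of each gene's TPM on transcripts annotated as protein-coding, with one bar per library, for the 29 genes with 2 or more transcripts; hatched parts are transcripts whose type was not matched. Tyms (9.39% and 8.35%) and Pfas (27.3% and 23.4%) have the shortest bars among matched genes, and Atic has the widest gap between libraries.

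Replicate 1 gave the higher TPM for 31 of the 36 enzymes, against 74.7% of the 11480 genes at 5 TPM or more in the higher library. The median log2((TPM + 1) ratio) of replicate 1 over replicate 2 was 0.50 for the enzymes and 0.26 for the 15075 genes at a mean of 1 TPM or more. Only Mtr was at least 2-fold apart by that measure, at a log2 ratio of 1.25, against 5.56% of the 11480 genes in either direction and 4.56% higher in replicate 1. Mtr had 969 and 415 expected counts, and its ratio relative to all gene counts was 2.28, with a 95% interval of 2.03 to 2.56 that covers counting error only. Gart and Mthfd1 came next, at log2 ratios of 0.97 and 0.96, just under the 2-fold limit. The side that was higher depended on scaling for Paics, Dhodh, Rrm2, Phgdh and Mthfd2. On all 9 scales and pseudocounts tried, 26 enzymes were higher in replicate 1 and Tyms, Dtymk, Dut, Tk1 and Psph were higher in replicate 2. A pseudocount cannot change the side. On FPKM and the count-based scales the median of all genes moved toward replicate 2. The agreement for the 5 genes higher in replicate 2 was thus nearly fixed in advance.

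Those 5 genes were among the 6 enzymes with an abundance-weighted transcript length under 1500 nt, Ctps2 being the other. In that length class the median log2 ratio was -0.15 for the enzymes and -0.07 for 4375 genes. From 1500 to 2500 nt it was 0.36 for 14 enzymes and 0.23 for 4097 genes. From 2500 to 4000 nt it was 0.61 for 12 enzymes and 0.45 for 3969 genes, and from 4000 nt on it was 0.58 for 4 enzymes and 0.54 for 2634 genes. The difference between libraries thus moved with length in the enzymes and in all genes. Spearman's rho of length and log2 ratio was 0.73 across the 36 enzymes and 0.53 across all genes, given as descriptions of genes that share their libraries. Without Tyms, Dtymk, Dut and Tk1 it was 0.625 across the remaining enzymes. The part of length in the higher thymidylate enzymes of replicate 2 was not tested.

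**Figure D4:**
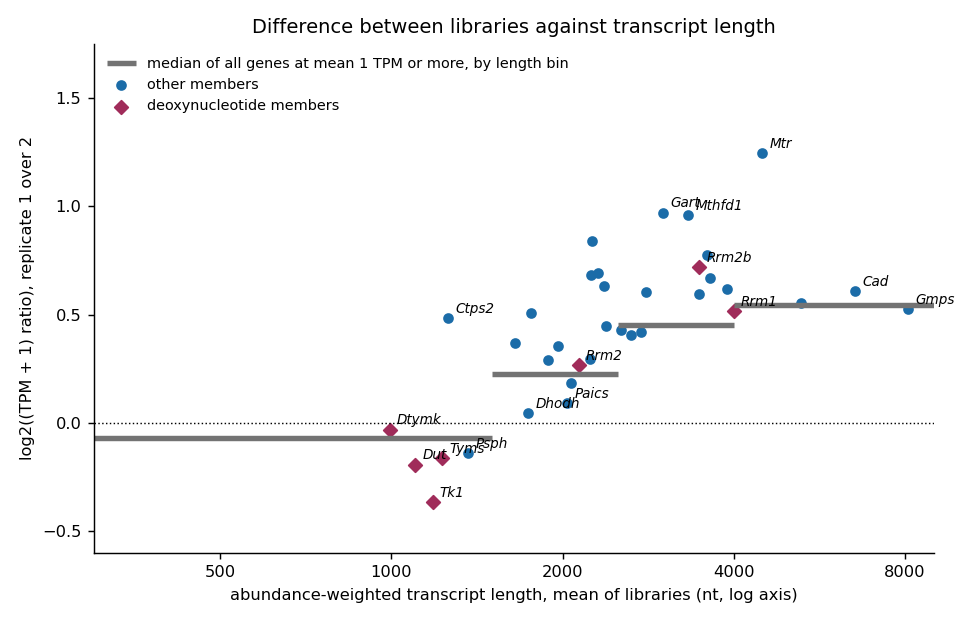
Log2((TPM + 1) ratio) of replicate 1 over replicate 2 against transcript length on a log axis, with diamonds for deoxynucleotide enzymes, circles for the other enzymes and grey bars for the median of all genes in 4 length classes, the outer ones being open-ended. Tyms, Dtymk, Dut, Tk1 and Psph lie below 0 at short lengths, and Mtr lies highest at 1.25.

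The pathways around these enzymes were mostly expressed too. Of 77 other genes of the same pathways that were matched, 64 were at 1 TPM or more in both libraries, 12 were under it in both, and 0 were 2-fold apart by the rule above. In purine salvage and breakdown 8 of 13 reached 1 TPM in both libraries. Aprt, which salvages adenine, was at 239 and 252 TPM and Hprt, which salvages hypoxanthine and guanine, at 123 and 129.6 TPM. The 4 under 1 TPM in both libraries included Uox, Ampd1 and Gda, whose products act late in breakdown or in muscle. Pyrimidine salvage and breakdown had 9 of 11 at that level, led by the uridine kinases Uck2 (78.2 and 74.3 TPM) and Uck1 (51.9 and 49.75 TPM), with Dpys and Upb1 under 1 TPM.

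All 9 genes of deoxynucleotide salvage and control were detected. By mean TPM the highest were Dctpp1 (199 and 218 TPM), which clears unwanted dCTP, and Dnph1 (57.5 and 57.2 TPM), although Dguok was above Dnph1 in replicate 1. The 11 nucleotide kinases were likewise all detected, with Nme2 at 218 and 214 TPM and Nme1 at 149 and 184 TPM. In folate uptake and interconversion 13 of 15 were detected. Mthfsd (47.85 and 50.3 TPM) and Slc19a1, the reduced folate carrier (32.0 and 25.3 TPM), were highest there by mean TPM, although Ggh and Mthfs were above Slc19a1 in replicate 2, and Ftcd and Aldh1l2 were under 1 TPM. The 4 glycine cleavage genes were detected, with Gcsh at 156 and 137 TPM and Dld at 121 and 103 TPM. In the wider methionine cycle 10 of 14 were detected, and by mean TPM the spermidine synthase Srm (191 and 161 TPM) and Mat2b (81.6 and 71.0 TPM), the regulatory partner of Mat2a, were highest. Ahcyl1 was above Mat2b in replicate 1. The 4 under 1 TPM there were Mat1a, Bhmt, Gnmt and Bhmt2, genes known for their expression in liver.

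Of 14 S-phase and replication genes all were detected, with Pcna at 267 and 286 TPM and Mcm6 at 242 and 132 TPM. Their median log2 ratio between libraries was 0.48, against 0.26 for all genes at a mean of 1 TPM or more. Replicate 1 was higher for 13 of 14, against 74.7% of the 11480 genes at 5 TPM or more in the higher library. Both backgrounds take genes of every length. Among all genes of 2500 to 4000 nt the median was 0.45, and 89.0% were higher in replicate 1. The S-phase genes were not sorted by length, and the part of length in their values was not tested. Over all transcripts the thymidylate enzymes Tyms, Dtymk, Dut and Tk1 were higher in replicate 2, Dtymk only slightly, and all have lengths under 1500 nt. In that length class 42.3% of all genes were higher in replicate 1, and the part of length was not tested. Of 10 regulators, Trp53 and Atf4 were highest. Myc (90.7 and 85.1 TPM) and Mycn (81.6 and 66.25 TPM), which encode proteins that bind the E-box, are named here outside the rule for named genes, as is Max, their partner and the 1 regulator 2-fold apart, at 23.6 and 48.5 TPM.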

How the data were processed

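Total RNA libraries of 2 kidney samples were quantified by the authors on mm10 with GENCODE release M4, per the labels and the text deposited with each sample; no source used here names the tool. The deposited expected counts are estimated reads per gene. The deposited TPM values (maximum likelihood and posterior mean) are scaled per length over all features, spike-ins included, and the deposited FPKM values by length and depth. The authors' credibility bounds of TPM are a signal on the TPM scale, and their isoform percent is a transcript's share of its gene's TPM. All are per the file headers.

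Symbols, transcript types and coordinates (1-based) came from GENCODE M21, which matched 42462 of 43346 genes, and sequences from RefSeq. A gene was detected at 1 TPM or more in each library. Genes were apart at a log2((TPM + 1) ratio) of 1 or more with 5 TPM in the higher library. Count-ratio intervals are exact conditional binomial 95% intervals; intervals and the 3-count limit cover counting error only, since no molecular identifiers are used. Near copies were sought with blastn 2.17.0 at 95% identity over 200 nt. The 2-fold rule for genes apart was run on simulated libraries with known changes. These had less spread than the real libraries and no trend with length. That run therefore does not show how the rule behaves on the real libraries. The enzymes and gene lists were chosen with earlier results of these data known. Named were all 36 enzymes, the 2 highest genes of each further list, up to 3 of its lowest under 1 TPM, the related forms compared, and annotated pseudogenes at 1 TPM or more; other near copies were named after their values were seen. Pnp was not matched. Python 3.11.15, numpy 2.4.6, pandas 2.3.3 and scipy 1.17.1 were used.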

Additional observations from a re-analysis of the deposited data

How the results depend on the processing

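No paired analysis was possible because there is 1 group of 2 samples. The number of detected enzymes was 36 at a floor of 0.5 TPM, on posterior mean TPM and on FPKM, and 34 at a floor of 5 TPM; the other pathway genes ranged from 55 to 66 against 64. The number of enzymes 2-fold apart was 1 (Mtr) in most settings, 0 with a pseudocount of 5 or on FPKM, and 14 at a limit of 1.5-fold. The median log2 ratio of 0.50 was 0.27 on FPKM, 0.26 on counts relative to all gene counts and 0.21 with median-of-ratios size factors. The median of all genes was 0.05, 0.06 and 0.02 on those scales. Over the scales and pseudocounts tried, the enzymes stood 0.19 to 0.28 above all genes. Most of the scales multiply each library by 1 constant, which moves enzymes and all genes nearly alike, so this gap was nearly fixed in advance. Within length classes the enzyme median was above that of all genes from 1500 nt on and below it under 1500 nt. On FPKM, whose scale differs from TPM, the pathway medians were 30.9 (purine to IMP), 30.6 (AMP and GMP), 33.0 (pyrimidine), 120.4 (deoxynucleotide), 54.9 (serine), 28.6 (folate) and 48.5 (methionine). With 1 library left out, the deoxynucleotide median was 154 to 169.9 and the median leading transcript share 77.9% to 78.6%, against 74.7% for both. E2F-type motifs before the start alone were in 1 enzyme. The sum of Prps1 and Prps1l3 over Prps2, an alternative chosen after seeing the data, was 4.71. Depth limits the ratio to Mat1a, at 1 and 0 counts; with 2 libraries, 1 SD is poorly known for every value.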
